A study of Mus musculus with 12 samples.

Results

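The m6A IP of mesaconitine (MA) treated HT22 cells was set against the input RNA of the same cells, peak by peak. A peak was kept when its MA IP reads and MA input reads together came to at least 30. This rule kept 2572 of 2643 peaks, which carried 2113 of 2171 gene names, and left out 71 peaks. At the threshold, the 9 peaks with 30 reads had scaled log2(IP/input) values from -1.74 to 0.71, and the 12 peaks with 29 reads, just outside it, from -1.04 to 1.19.

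HT22 is a cell line labelled as mouse hippocampus with a wild type genotype, and MA is a toxic alkaloid made by monkshood. By the study's methods the cells were exposed to 800 μM MA for 72 h, and the control cells to 0 μM. Each of the 4 groups (MA IP, MA input, control IP and control input) holds 3 libraries, and whether these came from separate dishes or passages was not stated. Polyadenylated RNA was fragmented, a part was saved as input, and the rest was precipitated with an anti-m6A antibody. The reads per peak are given as sums over the 3 libraries of a group, so no value below has a replicate check, and no test between conditions was possible.

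N6-methyladenosine (m6A) is laid down on mRNA by a methyltransferase complex built on METTL3 and METTL14, removed by FTO and ALKBH5, and bound by reader proteins such as the YTH family, which direct mRNA to decay, splicing or translation. The complex favours the sequence DRACH, in which the A before the C is methylated, and sites are known to gather near stop codons and in long internal exons. In MeRIP-seq an antibody enriches methylated fragments, so a stretch of RNA with more IP than input reads is read as carrying the mark, relative to how much of that RNA there is. In neurons m6A is known for roles in axon growth, synaptic translation and the response to injury.

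The MA columns summed to 359889 IP and 214778 input reads over all peaks, and the control columns to 267002 and 288659. As deposited, MA IP reads outnumbered MA input reads in 2504 of the kept peaks (97.4%), and control IP reads outnumbered control input reads in 1100 of the same peaks (42.8%). The ratio of the column totals was 1.68 for MA and 0.925 for control, and each peak's IP/input ratio was divided by the ratio of its own group. A scaled ratio of 1 is therefore the average of the table, not the absence of m6A, and a value below 1 can still have more IP than input reads. Each scaled ratio carries an exact Clopper-Pearson 95% interval of the IP share of its reads, which covers counting error only. A peak was called higher or lower when its scaled ratio was at least 1.5-fold from 1.

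Most neuronal markers were listed at or near 0 in HT22 cells. In the authors' expression table, where the base mean is the mean normalised read count of a gene, 7 of 12 neuronal markers (Map2, Dcx, Nefl, Nefm, Snap25, Gap43 and Stmn2) were listed at 0. Eno2 had a base mean of 534, Tubb3 of 473, and Elavl3, Syp and Rbfox3 of 7.64, 4.70 and 1.15. Only Eno2 passed 500, the base mean from which a gene is counted as expressed below. A base mean of 0 does not show that a gene had no reads, since some genes with peaks were listed at 0 too. Of 6 microglial markers, Tmem119 was at 303, Aif1 at 64.3, Csf1r at 8.06, Cx3cr1 at 2.33, Itgam at 1.80 and P2ry12 at 0. Of 6 astrocyte markers, the glutamate transporter genes Slc1a3 and Slc1a2 were at 1140 and 115, and S100b, Aldh1l1, Gfap and Aqp4 at 15.9, 5.80, 0.646 and 0. Of the neuronal, microglial and astrocyte markers, only Eno2, Elavl3 and the microglial Aif1 held a kept peak.

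The sequences below are shown because their peaks carry the highest and lowest scaled ratios, or lie on the autophagy and lysosome genes described later. Each is a window of 29 bases of mm10 (GRCm38), read 5′ to 3′ on the strand of the gene, with a DRACH motif in capitals. Where the peak held the letters GGAC, this is the GGAC nearest the centre of the peak with the base after it. In the other peaks it is the DRACH nearest the centre. A window can run past the edge of its peak, but the motif lies within it. The windows are Slc27a1 (chr8:71579992-71580020, plus strand, coding sequence, exon 5 of 14), Ino80d (chr1:63049653-63049681, minus strand, 3′UTR, exon 11 of 11), Adm (chr7:110629233-110629261, plus strand, 3′UTR, exon 4 of 4), Csgalnact1 (chr8:68401448-68401476, minus strand, coding sequence, exon 4 of 10), Tmem115 (chr9:107538529-107538557, plus strand, 3′UTR, exon 2 of 2), Naglu (chr11:101073966-101073994, plus strand, coding sequence, exon 5 of 6), C9orf72 (chr4:35197081-35197109, minus strand, coding sequence, exon 8 of 10), Atg2a (chr19:6262146-6262174, plus strand, 3′UTR, exon 40 of 40), Tsc1 (chr2:28689810-28689838, plus strand, 3′UTR, exon 23 of 23) and Irs1 (chr1:82289924-82289952, minus strand, coding sequence, exon 1 of 2).
Slc27a1: cacgcagctcctGGACCccatgcttgctg
Ino80d: cagctctctagaAAACTtgcacccttata
Adm: tcgcaccggggcGGACTgagacaatcctg
Csgalnact1: gaccttcaaaggGGACCacaagcatgaat
Tmem115: ctgctgtggcagTGACAactgtgcctagc
Naglu: tcctacgggagcTGACCaaggagtttggc
C9orf72: ccaccgtgtcatGAACAtatttataatca
Atg2a: ttttggacccatGGACCccactcagccaa
Tsc1: tggcaccataggTGACAagcgatagactc
Irs1: gcctgaccagcaAGACCatcagctttgtg

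A DRACH motif did not mark these peaks out. In the exonic sequence of the peaks, on the sense strand, at least 1 DRACH was found in 73.2% of peaks and in 73.8% of other windows of the same length on the same transcripts. Of the 10 peaks with the highest lower bounds, those of Gmeb1, Exoc6, Ppargc1a and Fkbp1a held none. The adrenomedullin transcript Adm, which held the lowest upper bound of all, had 8. GGAC, the letters most often methylated in mammals and contained in some DRACH motifs, was found in 31.1% of peaks and 28.5% of the other windows. In MA, peaks with a GGAC had a median scaled log2 ratio of 0.07 (n = 783), and those without of 0.16 (n = 1731). Among peaks with up to 100 reads the MA medians were 0.19 with and 0.43 without GGAC, and among deeper peaks 0.02 and 0.04. In control the order was reversed, with medians of 0.10 with and 0.01 without GGAC over the same peaks.

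Over the 2572 kept peaks the scaled log2 ratio in MA cells ran from -1.81 to 3.87, with a median of 0.14 and quartiles of -0.21 and 0.58. At least 1.5-fold higher were 634 peaks (24.7%) on 588 gene names, and 119 (4.63%) on 116 names were at least 1.5-fold lower. In control cells, by the same rule, 460 of these peaks (17.9%) were higher and 180 (7%) lower. The counting interval lay wholly above 1 in 571 MA peaks, wholly below 1 in 311, and spanned 1 in 1690. It lay wholly past 1.5-fold in 130 peaks above and in 8 below.

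The ratio went with depth. A kept peak held a median of 125 MA reads (range 30 to 2865). The median scaled log2 ratio was 0.26 in peaks of 30 to 50 reads and 0.40 in those of 51 to 100. It was 0.22 at 101 to 200 reads, -0.01 at 201 to 500 and -0.21 above 500. Of the 260 peaks above 500 reads, 5 were called higher, against 276 of the 712 peaks of 51 to 100 reads. Across peaks, Spearman's rho of the scaled ratio was -0.32 with the reads and 0.00 with the base mean of the gene. Both the ratio and the reads are made from the same counts. The part of depth in the results below was not tested.

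**Figure D1:**
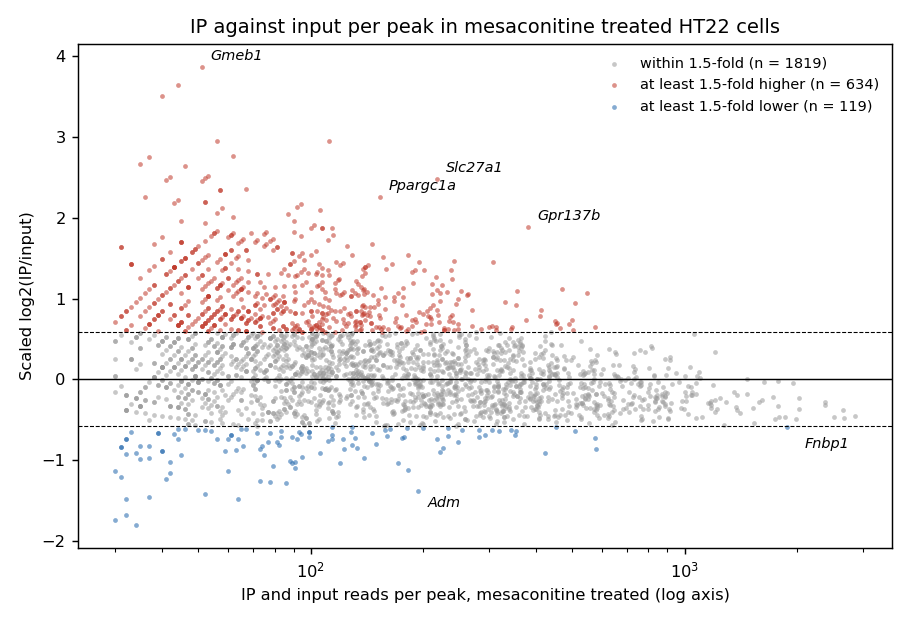
Scaled log2(IP/input) of each of the 2572 kept peaks in MA treated cells (vertical axis) against its IP and input reads together (horizontal log axis), with dashed lines at 1.5-fold. The 634 peaks called higher (red) lie mostly at lower read numbers, and the deepest peaks, such as that of Fnbp1, lie below the average of the table.

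The highest scaled ratio was in the 3′UTR of Gmeb1, which encodes a factor that binds glucocorticoid response elements. It held 49 IP and 2 input reads in MA cells and 6 IP and 21 input reads in control cells. Its scaled ratio was 14.6 (95% interval 3.84 to 124) in MA and 0.309 (0.102 to 0.791) in control. With 2 input reads the upper bound says little, and the lower bound is the value to read.

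Deeper peaks gave narrower intervals. Slc27a1, encoding a long-chain fatty acid transporter, held 196 IP and 21 input reads at exon 5 in MA cells and 11 and 72 in control cells. Its scaled ratios were 5.57 (3.54 to 9.20) and 0.165 (0.0790 to 0.313), so the IP and input reads changed places between the groups. Ppargc1a, encoding the coactivator PGC-1α that drives mitochondrial biogenesis, held 136 IP and 17 input reads in its 3′UTR after MA and 3 IP and 40 input reads in control. The scaled ratios were 4.77 (2.87 to 8.44) and 0.0811 (0.0160 to 0.255). Gpr137b, encoding a lysosomal membrane protein, had the most reads of the leading peaks, with 328 IP and 53 input in MA and 85 and 137 in control. Its ratios were 3.69 (2.76 to 5.04) and 0.671 (0.506 to 0.886).

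The other leading peaks had fewer input reads. Ino80d, encoding a subunit of the INO80 chromatin remodeller, held 57 IP and 5 input reads (ratio 6.80, 2.75 to 21.8), against 8 and 29 in control. Fkbp1a, encoding the FK506-binding protein FKBP12, held 83 and 11 (4.50, 2.39 to 9.37), against 33 and 63 in control. Pkn3, encoding a protein kinase, held 52 and 4, and Exoc6, encoding a subunit of the exocyst, held 38 and 2. All of these had a control ratio below 1, and for Pkn3 and Exoc6 the control interval spanned 1. Srm, encoding spermidine synthase of the polyamine pathway, was the exception. It held 42 IP and 2 input reads in MA (12.5, 3.26 to 107) and 59 and 35 in control (1.82, 1.18 to 2.85), high in both groups.

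At the low end, IP reads fell short of input reads in MA cells even before scaling. Adm, encoding the vasodilator peptide adrenomedullin, held 76 IP and 118 input reads in MA and 275 and 111 in control. Its ratio was 0.384 (0.284 to 0.517) in MA and 2.68 (2.14 to 3.37) in control, where IP reads were in excess. Csgalnact1, encoding an enzyme of chondroitin sulphate synthesis, held 79 and 103 in MA and 296 and 140 in control. Its ratios were 0.458 (0.337 to 0.620) and 2.29 (1.86 to 2.82). Zmynd8, encoding a reader of histone marks, held 35 and 51 in MA and 88 and 27 in control, with ratios of 0.410 (0.259 to 0.642) and 3.52 (2.27 to 5.64). Dgki, a diacylglycerol kinase gene, held 11 and 23 in MA and 61 and 14 in control, on a gene with a base mean of 2.10.

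The deepest peaks lay close together, a little under the average. Those of Fnbp1, Map1lc3b, Rpl39l, Msrb3 and Dync1h1 held 1016 to 1288 input and 1364 to 1577 IP reads in MA. Their scaled ratios were 0.731, 0.719, 0.769, 0.724 and 0.801, with upper bounds of at most 0.870. In control cells they lay between 0.927 and 1.01. Map1lc3b, encoding the autophagosome protein LC3B, was thus one of the best measured transcripts, with 1455 IP and 1208 input reads in MA and 1253 and 1342 in control.

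Set beside the control ratio of the same peak, the MA ratio ran the other way. Spearman's rho between the scaled log2 ratios of both groups was -0.64 over the 2572 peaks, and Pearson's r was -0.64. These points share the list of peaks and, within a group, the scaling. Of the 634 peaks called higher in MA, 505 had a control ratio below 1 and 129 above 1. Of the 119 called lower in MA, all 119 had a control ratio above 1. Higher in both groups were 14 peaks, 2.21% of those higher in MA and 3.04% of those higher in control, and lower in both were 0. In 2 peaks both intervals lay above 1, and in 15 both lay below 1.

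**Figure D2:**
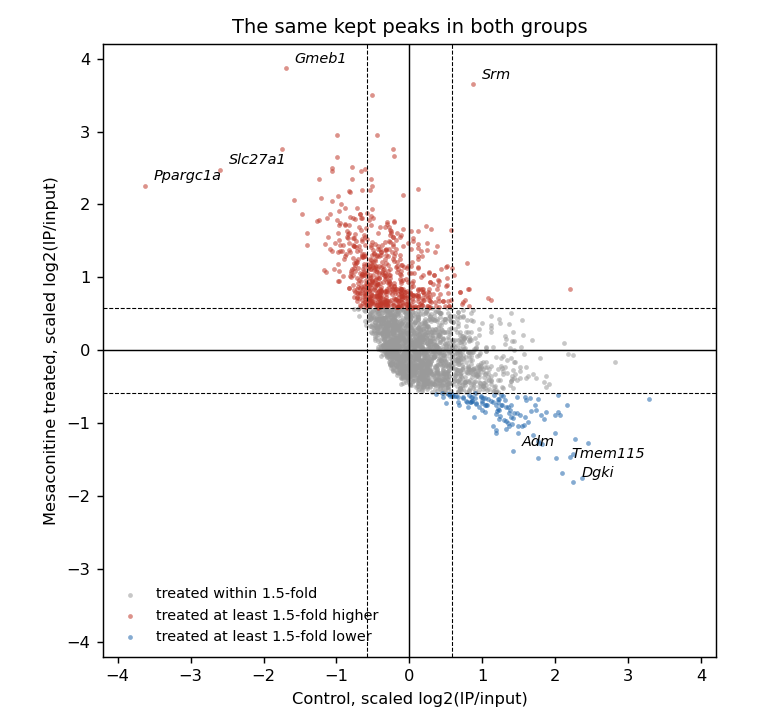
Scaled log2(IP/input) of each of the 2572 kept peaks in MA treated cells (vertical axis) against control cells (horizontal axis), with dashed lines at 1.5-fold. The cloud runs from the upper left, with Ppargc1a and Slc27a1, to the lower right, with Adm and Dgki, and 0 peaks lie beyond the dashed lines in the lower left.

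Over both groups together, every one of the 2572 peaks had more IP than input reads. The IP/input ratio of the summed reads was at least 1.02, against 1.25 for the whole table. Its log2 had an SD of 0.25 over peaks, while the scaled log2 ratio had an SD of 0.63 in MA and 0.58 in control, and the difference of both an SD of 1.09. How the peaks of the table were chosen from both groups was not given in the sources used here, and the part of that choice in the opposite order was not tested. In the peaks called higher in MA, the median share of IP reads was 0.71 higher on the log2 scale in MA than in control and the median share of input reads was lower, at -0.65. In those called lower in MA, the medians were -1.38 for IP and 0.69 for input.

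The ratio in MA was at least 1.5-fold above that in control in 781 peaks (30.4%) and at least 1.5-fold below in 580 (22.6%). The Woolf 95% interval of this change, from the 4 read numbers and for counting error only, lay above 0 in 650 peaks and below 0 in 530. Ranked by the near bound, the largest positive changes were those of Ppargc1a (log2 change 5.88, interval 4.04 to 7.72), Slc27a1 (5.08, 3.95 to 6.20), Gmeb1 (5.56, 3.14 to 7.99), Ino80d (4.51, 2.78 to 6.25) and Stk31 (3.95, lower bound 2.71). The most negative changes were a peak shared by 8 Ugt1a genes, which encode enzymes that couple glucuronic acid to lipids and drugs (-3.72, -4.70 to -2.74), and those of Dgki (-4.04, -5.38 to -2.71), Adamts3 (-4.11, -5.52 to -2.69), Nell1 (-3.66, -4.79 to -2.54) and Tmem115 (-3.77, -5.08 to -2.45). The Ugt1a genes share their last exons, so its reads cannot be assigned to any of them. Tmem115, encoding a Golgi membrane protein, held 11 IP and 21 input reads in MA and 63 and 16 in control.

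Some of these genes were listed at a base mean of 0. Stk31, Sdk2, Adamts3 and Nell1 were among 85 genes, with 89 kept peaks, that had reads in a peak but a base mean of 0. Of these 89 peaks, 76 reached over more than 1000 bases of the genome, introns included, against 599 of all 2572. Their median scaled log2 ratio was -0.01 in MA and 0.57 in control, against 0.14 and 0.03 over all kept peaks. In MA 23 were called higher (25.8%) and 15 lower (16.9%), against 24.7% and 4.63% of all kept peaks. In control, by the same rule, 43 were higher (48.3%) and 6 lower, where 17.9% and 7% of all kept peaks were. In Stk31, a kinase gene known for its use in the testis, the peak held 104 IP and 8 input reads in MA and 25 and 54 in control. The deepest was on Usp26, a deubiquitinase gene, with 567 IP and 455 input reads in MA. Why the tables differ for these genes was not tested, so their peaks are less certain than the rest.

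Lysosomal genes had the highest median of the lists with at least 10 peaks. Of 62 genes of lysosomal proteins, 50 had a base mean of at least 500, and 14 of these held a kept peak (28%, against 17.6% of all genes so expressed). The list had 24 peaks on 17 genes, with a median scaled log2 ratio of 0.44 in MA, against 0.14 over all kept peaks. Of these, 10 were called higher (41.7%, against 24.7% of all kept peaks) and 0 lower (against 4.63%). The counting interval lay above 1 in 8 of the 24 peaks, below 1 in 1, and spanned 1 in 15. Over all 2572 kept peaks these numbers were 571, 311 and 1690. In control the list's median was -0.10, against 0.03 over all kept peaks, with 1 peak higher and 3 lower, against 17.9% and 7% of all kept peaks. The list is described by its counts only, since the same results were known when it was chosen. Its genes Naglu, Fuca2, Galc, Mcoln1, Slc11a2 and Ctsb were also named by the study from the same samples.

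Among the enzymes that take apart sugar chains, Naglu stood highest. It encodes the glucosaminidase that degrades heparan sulphate, and its peak in exon 5 held 98 IP and 16 input reads in MA and 14 and 42 in control. The scaled ratios were 3.66 (2.14 to 6.65) and 0.360 (0.182 to 0.673). Fuca2, encoding a fucosidase, held 94 and 24 in MA (2.34, 1.48 to 3.83) and 25 and 45 in control. Man2b1, encoding lysosomal alpha-mannosidase, had a pair of coding peaks with ratios of 1.63 (1.15 to 2.35) and 1.43 (1.13 to 1.80), both below 1 in control.

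Galc, encoding the enzyme that cleaves galactosylceramide of myelin, was split between its peaks. Its 3′UTR peak held 82 IP and 22 input reads in MA (2.22, 1.38 to 3.74). Its coding peaks held 327 and 202 reads and 463 and 287 reads, with ratios of 0.966 (0.808 to 1.16) and 0.963 (0.829 to 1.12). In control the coding peaks lay at 0.954 and 0.906, within counting error of MA.

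Other lysosomal peaks lay on genes of membrane proteins. Mcoln1, encoding the calcium channel TRPML1, held 561 IP and 255 input reads at its 5′UTR and 817 and 386 in exon 2. The scaled ratios were 1.31 (1.13 to 1.53) and 1.26 (1.12 to 1.43) in MA and 0.799 (0.691 to 0.922) and 0.695 (0.612 to 0.788) in control. These were among the most precise peaks of the list, and both groups' intervals lay on opposite sides of 1. Npc1, encoding a cholesterol exporter, had a ratio of 1.51 (1.08 to 2.13), and Slc11a2, encoding the iron carrier DMT1, of 1.25 (0.928 to 1.68). Ppt1, encoding a palmitoyl thioesterase, was the only lysosomal peak with an interval below 1, at 0.781 (0.670 to 0.910).

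The protease gene Ctsb, encoding cathepsin B, had neighbouring peaks in its 3′UTR. They held 48 and 19 reads (1.51, 0.870 to 2.72) and 84 and 44 reads (1.14, 0.782 to 1.68) in MA. In control they held 19 and 23 reads and 36 and 37. All intervals of Ctsb spanned 1, so a change was not detectable at this depth.

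The V-ATPase pumps protons into the lysosome. Of the 21 genes listed for it, 18 were expressed, and 4 of these had a peak (22.2%, against 17.6% of all expressed genes). The median was 0.59, with 2 peaks called higher (50%, against 24.7% of all kept peaks) and 0 lower (against 4.63%). At a minimum of 100 reads, which left 2 peaks, the median of the list was 0.17 above that of all peaks, against 0.45 with all 4. Wdr7, encoding a factor that helps assemble the pump, held 71 IP and 20 input reads (2.12, 1.28 to 3.67). Dmxl1, of the same assembly complex, held 67 and 25 (1.60, 0.997 to 2.64), Atp6v1e1, a subunit gene, 83 and 35 (1.42, 0.943 to 2.17), and Atp6v0b, another, 729 and 459 (0.948, 0.842 to 1.07). The peaks of Wdr7 and Dmxl1 were called higher, and those of both subunit genes were not. Only the Wdr7 interval lay wholly above 1. All 4 peaks had control ratios below 1, as did 505 of the 634 kept peaks called higher in MA.

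Genes of the autophagy machinery did not share a direction. Of 21 peaks on 13 genes, 6 were called higher (28.6%, against 24.7% of all kept peaks) and 1 lower (4.76%, against 4.63%), and the median was 0.14, the same as over all kept peaks. Atg2a, encoding a lipid transfer protein of the growing autophagosome, had 5 peaks. Its 3′UTR peak held 53 IP and 9 input reads in MA (3.51, 1.72 to 8.10) and 15 and 23 in control. The peak in exon 16 held 15 and 16 in MA (0.559, 0.258 to 1.21) and 34 and 10 in control (3.68, 1.78 to 8.34), and the other three lay at 0.836, 1.15 and 1.19.

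C9orf72 encodes a partner of the autophagy regulator SMCR8, and its coding peak held 66 and 12 reads in MA (3.28, 1.76 to 6.67) against 18 and 36 in control. Its 3′UTR peak, with 181 and 100 reads, lay at 1.08 (0.842 to 1.39) in MA and 1.12 (0.864 to 1.44) in control. Zfyve1, encoding a marker of the sites where autophagosomes form, held 44 and 8 (3.28, 1.53 to 8.07). The kinases that start autophagy were near the average, with ratios of 1.10 and 1.25 for both Ulk1 peaks and 1.04 for Ulk2. Atg14, a subunit of the lipid kinase complex, lay below it in both its peaks, at 0.729 (0.543 to 0.981) and 0.829 (0.576 to 1.20).

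Insulin and mTOR signalling, which holds autophagy back when nutrients are plentiful, had 11 peaks with a median of 0.05. Tsc1, encoding a brake on mTOR complex 1, held 129 IP and 30 input reads in its 3′UTR in MA (2.57, 1.71 to 3.96) and 40 and 71 in control (0.609, 0.403 to 0.910). Mtor held 99 and 33 (1.79, 1.20 to 2.74), and Fnip1, encoding a partner of folliculin, 119 and 39 (1.82, 1.26 to 2.69). Irs1, encoding the adaptor of the insulin receptor, was lower, with 122 and 125 in MA (0.582, 0.450 to 0.754) and 264 and 163 in control (1.75, 1.44 to 2.14). Foxo4 was the remaining peak called higher, with an interval that spanned 1.

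The 12 autophagy, lysosome and adherens junction genes that the study named had 21 kept peaks. Of these, 8 were called higher and 2 lower in MA (38.1% and 9.52%, against 24.7% and 4.63% of all kept peaks), with a median of 0.34. In control 3 were higher and 5 lower, with a median of -0.32, where 17.9% and 7% of all kept peaks were. The study chose these genes on the same samples, so their direction is not independent evidence. Tcf7l2, encoding a transcription factor of Wnt signalling, held 254 and 114 reads (1.33, 1.06 to 1.67) in MA and 151 and 199 in control (0.820, 0.659 to 1.02).

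**Figure D3:**
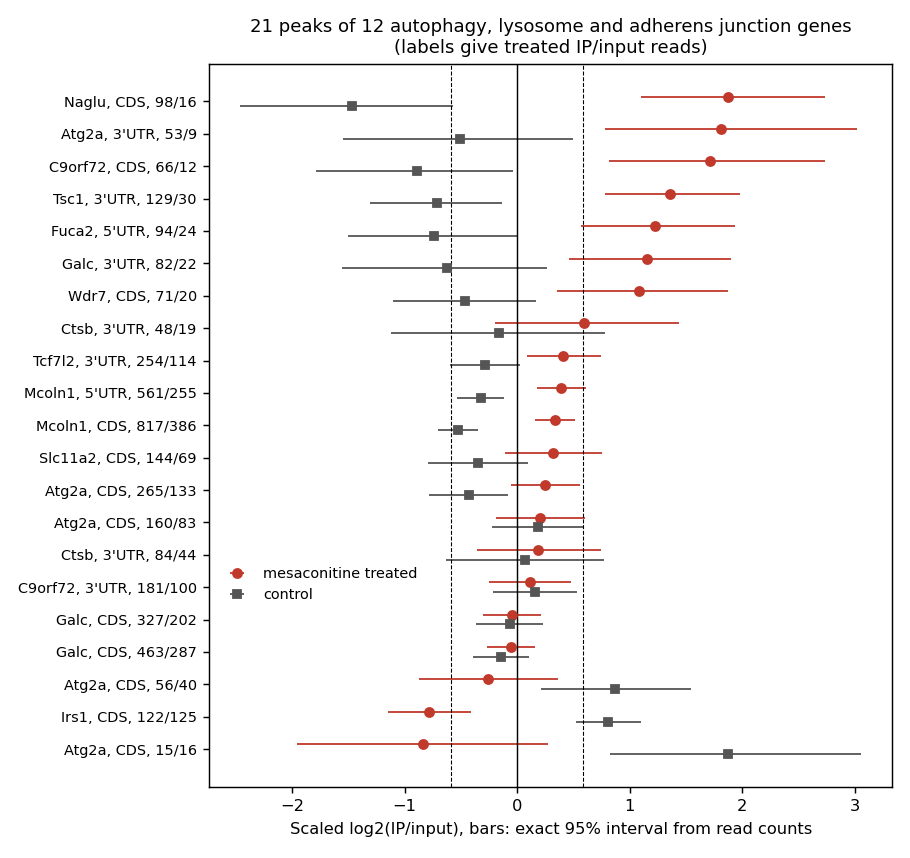
Scaled log2(IP/input) of the 21 kept peaks on the 12 genes that the study named, in MA treated cells (red circles) and control cells (grey squares), with exact 95% intervals from the read counts as bars and dashed lines at 1.5-fold. The peaks of Naglu and Tsc1 and the coding peak of C9orf72 are high in MA and below the average in control, Irs1 the reverse, and both Ctsb peaks overlap between the groups.

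The m6A machinery itself carried 3 peaks. Of 12 writer and eraser genes and 14 reader genes, all with a base mean of at least 500, 2 (16.7%) and 1 (7.14%) held a kept peak, against 17.6% of all expressed genes. Rbm15, encoding a protein that brings the methyltransferase to its targets, had a ratio of 0.892 (0.741 to 1.08) in MA and 0.901 (0.750 to 1.08) in control. Mettl5, encoding a methyltransferase of ribosomal RNA, lay at 1.21 (0.810 to 1.83) and Ythdf3, encoding a cytoplasmic reader, at 0.900 (0.715 to 1.14). All 3 intervals spanned 1.

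A kept peak was found on 22 of 60 expressed chromatin modifiers (36.7%) and 20 of 53 expressed ubiquitin ligases and deubiquitinases (37.7%), against 17.6% of all expressed genes, a difference that was not tested. Their medians were 0.10 and 0.12 over 27 peaks each, with 7 higher and 3 lower among the former and 6 higher and 0 lower among the latter. The shares called higher were 25.9% and 22.2%, near the 24.7% of all kept peaks, and the share called lower was 11.1% among the former, against 4.63%. Kmt2d, encoding a histone H3 methyltransferase, held 64 IP and 11 input reads (3.47, 1.82 to 7.30). Kdm6a, encoding a histone demethylase, held 70 and 17 (2.46, 1.43 to 4.45).

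Uba1, encoding the enzyme that activates ubiquitin, held 368 IP and 101 input reads in MA (2.17, 1.74 to 2.74) and 95 and 211 in control (0.487, 0.378 to 0.623). Smurf1, encoding a ligase of TGF-β signalling, had a 3′UTR peak with 68 and 13 reads (3.12, 1.71 to 6.16). A neighbouring Smurf1 peak had 505 and 368 reads and a ratio of 0.819 (0.715 to 0.939).

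The next lists had medians from -0.16 to 0.23, against 0.14 over all kept peaks. Immediate early and stress transcription factors had a median of 0.03 over 17 peaks, with 1 higher (5.88%, against 24.7% of all kept peaks). The lowest of them was Myc, encoding a growth-promoting transcription factor, at 0.711 (0.623 to 0.813) from 491 and 412 reads. Notch and Wnt genes had a median of 0.15 over 13 peaks, led by Dvl2, encoding a scaffold of Wnt signalling, with 42 and 4 reads (6.27, 2.27 to 24.1). Matrix and adhesion genes had a median of 0.01 over 12 peaks. Among them Col4a2, encoding a basement membrane collagen, lay at 1.65 (1.33 to 2.05) from 331 and 120 reads, and the cadherin gene Cdh11 at 0.509 (0.359 to 0.721) from 64 and 75 reads, on a gene with a base mean of 5.76. Neuronal and synaptic genes had a median of 0.23 over 14 peaks, with the semaphorin receptor gene Plxnd1 at 2.90 (1.82 to 4.82) from 107 and 22 reads. Cell cycle genes had a median of 0.03 over 7 peaks and the channel genes of -0.16 over 2.

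Cytosolic ribosomal protein genes, with a median base mean of 24141, had 0 kept peaks on 78 expressed genes. The study reported more peaks than were available here, so this does not show that m6A was absent from them. Genes of oxidative phosphorylation had a kept peak on 3 of 74 (4.05%), against 17.6% of all expressed genes. Among them was Cyc1, encoding cytochrome c1, with 191 IP and 48 input reads (2.37, 1.72 to 3.33). Glycolysis genes had 3 peaks on 2 of 16 expressed genes (12.5%), with scaled ratios of 0.882 to 1.27.

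**Figure D4:**
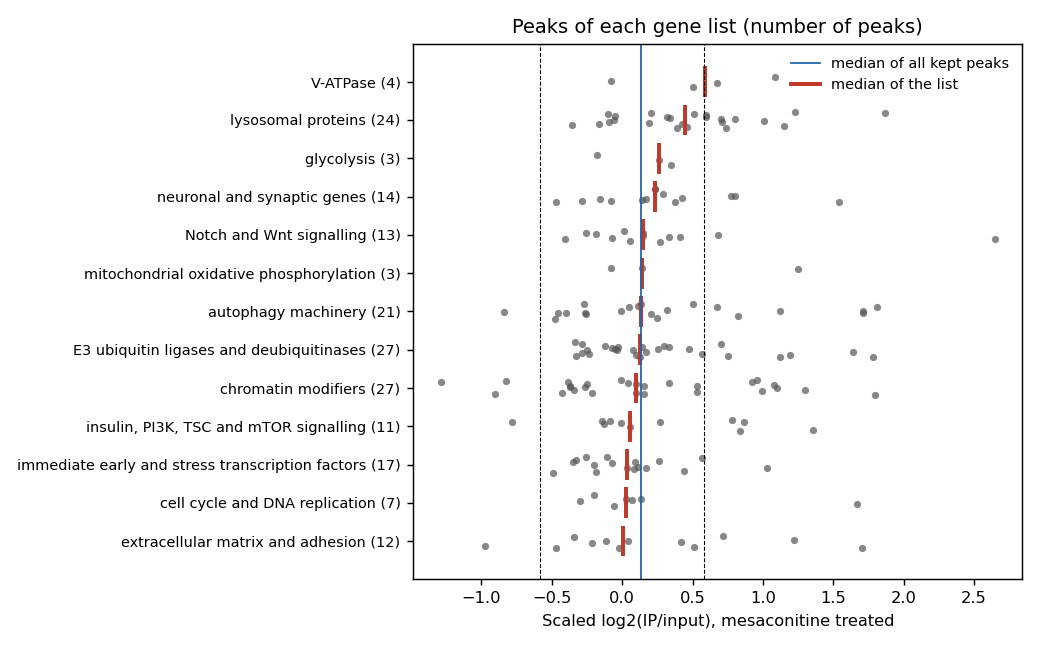
Scaled log2(IP/input) in MA treated cells of each kept peak (points) of the lists with at least 3 peaks, with the median of the list (red bar), the median of all kept peaks (blue line) and dashed lines at 1.5-fold. The lysosomal list, with a median of 0.44, has 10 points past the upper line and 0 past the lower one. The medians of the other lists run from 0.01 (matrix and adhesion) to 0.59 (V-ATPase, 4 peaks).

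By place on the transcript, the differences were small. The median scaled log2 ratio was 0.07 in the 5′UTR (222 peaks), 0.10 in the coding sequence (1400) and 0.18 in the 3′UTR (824). Peaks more than 1000 bases past the stop codon had a median of 0.26, with 33.3% called higher, the most of any distance class. At up to 100 reads these distal peaks were called higher in 45.5% of cases, against 36.3% of the other coding transcripts' peaks. At more reads the shares were 19.8% and 14.7%. Within 100 bases of the stop codon, where m6A is known to gather, the median was 0.10 over 161 peaks.

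Peaks of the same gene did not always share a direction. Of 2060 genes named alone, 359 had at least 2 kept peaks, 804 in all. The SD of the scaled log2 ratio within genes was 0.53, against 0.60 over these peaks as a whole, and both include counting error. In 19 genes the interval of 1 peak lay above 1 and that of another below 1. Over all 2572 kept peaks the interval lay above 1 in 571 and below 1 in 311. How often peaks of unrelated genes would differ in this way was not tested. Slc27a1 was among the 19 genes. Its peaks in exons 4 and 10 held 427 and 121 reads (2.11, 1.72 to 2.60) and 388 and 120 reads (1.93, 1.57 to 2.39). The peak in exon 11 held 58 and 56 reads (0.618, 0.421 to 0.909) and was high in control, at 1.81 (1.27 to 2.60).

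Nipa2, encoding a magnesium transporter, had a 3′UTR peak of 56 and 10 reads (3.34, 1.69 to 7.35) and coding peaks between 0.586 and 1.05. In the long noncoding RNA Neat1, the scaffold of paraspeckles, all 4 peaks lay above 1 in MA. They held 51 and 17, 80 and 14, 51 and 7, and 38 and 14 reads, with ratios of 1.79, 3.41, 4.35 and 1.62. The first of these was higher still in control, with 119 and 28 reads (4.59, 3.02 to 7.21), while the other three lay below 1 there. In the mitochondrial import gene Mtx3, ratios ran from 1.02 to 3.06 over 5 peaks. Lnpk and Nf1, with 4 peaks each, stayed between 0.887 and 1.29.

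**Figure D5:**
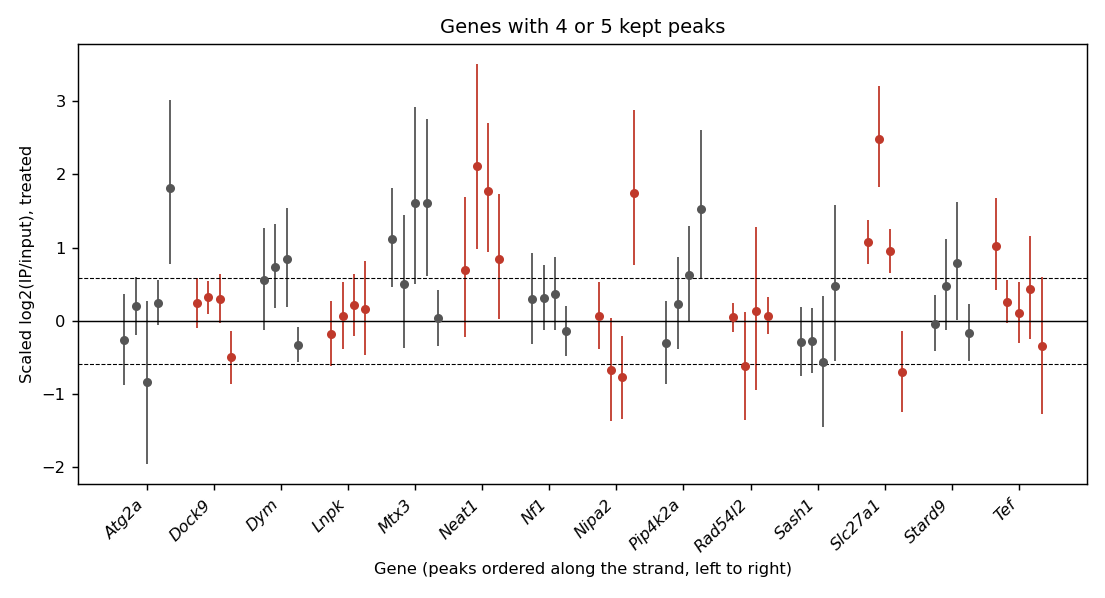
Scaled log2(IP/input) in MA treated cells of each peak of the 14 genes with 4 or 5 kept peaks, ordered along the strand from left to right, with exact 95% intervals from the read counts as bars and dashed lines at 1.5-fold (colours only separate neighbouring genes). Slc27a1, Dym, Dock9 and Nipa2 have peaks with intervals on both sides of 0, and those of Lnpk and Nf1 lie close together.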

How the data were processed

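MeRIP-seq libraries of HT22 cells, 3 IP and 3 input per group, were analysed from a table of reads per peak and a table of gene expression. By the study's methods, reads were trimmed with fastp and aligned to mm10 with HISAT2, and peaks were called with exomePeak2; versions were not given in the sources used here, nor whether reads were collapsed by molecular identifier. The deposited counts are raw reads per peak, which the authors pooled over the 3 libraries of a group. The columns named as treated were taken as MA. The base mean, a signal the authors made with StringTie and DESeq2, is a mean of normalised read counts, and which libraries entered it was not given. The authors' own fold changes and p-values, in both tables, were not used.

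Each IP/input ratio was divided by the ratio of column totals over all peaks, with no pseudocount. Peaks under 30 MA reads were left out, and a call needed a 1.5-fold distance from 1, with no test. Exact Clopper-Pearson intervals (95%) were carried from the IP share to the ratio, and Woolf intervals were used for the change from control. Peaks were placed on GENCODE M21 transcripts (GRCm38), 2514 of the 2572 kept. Genes with a base mean of at least 500 were counted as expressed. Named were the 10 peaks with the highest lower and the 5 with the lowest upper bounds, the 5 deepest, genes with at least 4 peaks, up to 4 peaks of each list furthest from 1 by their interval, the 5 largest changes from control each way, and the genes that the study named. Usp26, Ulk1, Ulk2, Atg14, Foxo4, Npc1, Ppt1, Dmxl1, Atp6v1e1, Atp6v0b, Rbm15, Mettl5 and Ythdf3 fell outside this rule and were chosen after their values were seen. The members and gene lists were chosen with earlier results of these data known. Alternatives covered the scaling, the minimum of reads, the call, the motif and the span of peaks. Calculations used Python 3.11.15, numpy 2.4.6, pandas 2.3.3 and scipy 1.17.1, and were tested on simulated data. Some results are not reported here.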

Additional observations from a re-analysis of the deposited data

Results flagged for a closer look

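In 200 peaks the interval of the scaled IP/input ratio lay above 1 in MA cells and below 1 in control cells, and in 141 it lay below 1 in MA and above 1 in control. Slc27a1 exon 5 (196 IP and 21 input reads in MA, 11 and 72 in control) is of the former kind, and Adm (76 and 118, 275 and 111) of the latter. Opposite directions in the groups drew attention to these peaks. The difference was not tested over replicates, since the reads were pooled.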

How the results depend on the processing

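Without scaling by column totals, 1845 peaks were higher and 8 lower in MA, with a median log2 ratio of 0.88, so that 99.6% of calls were higher, against 84.2% with it. For the change from control the counts became 1689 and 177, and 90.5% of calls were higher, against 57.4%. With scaling to the median peak, the median was 0 by construction, 233 peaks were lower, and 67.9% of calls were higher. A minimum of 60 reads gave a median of 0.0886. A minimum of 100 reads gave 245 higher, 47 lower and a median of 0.0371, and put the V-ATPase list 0.17 above all peaks, from fewer peaks. A call at 2-fold left 297 and 25, and an interval wholly past 1.5-fold left 130 and 8. With GGAC in place of DRACH, an alternative chosen after seeing the data as was the limit on span, the median with the motif minus that without was -0.0914. Among the recomputed values, these 17 moved past the limits set and the other 50 did not. No paired analysis was possible because the reads were pooled over libraries, which is also why leaving out single libraries was not run. Counting error limits peaks of few reads most, and error between cultures was not measured.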
